A study of Homo sapiens with 6 samples.

Results

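The 10 genes described here encode regulators of G protein signalling (RGS proteins): RGS2, RGS3, RGS4, RGS7, RGS9, RGS10, RGS12, RGS16, RGS17 and RGS19. They were taken by symbol from the 60671 gene identifiers in the count files, 34742 of them with any count and 17649, all 10 of these genes included, past the filter on low counts. The genes were picked with their response to the drug already known, so their differences between treatments are given as a description and support nothing further. The libraries came from EndoC-βH1, a human β cell line made from fetal pancreas by introducing SV40 large T antigen and telomerase, which secretes insulin when glucose rises. Cells were starved for 1 h in 0.5 mM glucose and then kept for 1 h at 0.5 or 20 mM glucose, with either the solvent DMSO (3 libraries) or 1 µM AZD7762, an inhibitor of the checkpoint kinases CHEK1 and CHEK2 (3 libraries), present through both steps. Which of the stimulation concentrations a library received is not given in the sources used here. The comparison asks how the transcriptome differs with the inhibitor during an insulin secretion experiment.

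A G protein-coupled receptor switches on a heterotrimeric G protein by making its α subunit exchange GDP for GTP, and the signal ends when the α subunit hydrolyses the GTP. RGS proteins bind the active α subunit and speed that hydrolysis, so that they shorten or blunt signals through Gi, Go, Gz or Gq, depending on the RGS protein. In β cells these pathways carry the inputs of adrenaline and somatostatin (Gi and Go) and of acetylcholine (Gq), which lower or raise insulin secretion. The family is grouped by sequence. RGS2, RGS3, RGS4 and RGS16 belong to the R4 group of small proteins, RGS7 and RGS9 to the R7 group, RGS10 and RGS12 to the R12 group, and RGS17 and RGS19 to the RZ group.

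RGS2 and RGS16 were the members with the highest fitted changes, and the sequences just before their transcription start sites are given here together with that of RGS17, the member with the lowest fitted change. These 3 were chosen after the values were seen. Each run holds the 250 bases before the RefSeq start, 5′ to 3′ on the gene's own strand. The sequences were taken from a RefSeq table of GRCh38.p14 and placed on GRCh37 by exact match, on chr1:192777919-192778168 (plus strand) for RGS2, chr1:182573525-182573774 (minus strand) for RGS16 and chr6:153452418-153452667 (minus strand) for RGS17. Capitals mark TGACG (the core of cyclic AMP response elements) or CCAAT (bound by NF-Y), searched on both strands.
RGS2: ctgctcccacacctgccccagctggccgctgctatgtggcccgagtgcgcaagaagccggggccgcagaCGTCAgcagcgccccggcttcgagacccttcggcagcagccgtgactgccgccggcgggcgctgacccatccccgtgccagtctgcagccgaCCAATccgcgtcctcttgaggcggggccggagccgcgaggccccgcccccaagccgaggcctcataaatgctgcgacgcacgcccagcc
RGS16: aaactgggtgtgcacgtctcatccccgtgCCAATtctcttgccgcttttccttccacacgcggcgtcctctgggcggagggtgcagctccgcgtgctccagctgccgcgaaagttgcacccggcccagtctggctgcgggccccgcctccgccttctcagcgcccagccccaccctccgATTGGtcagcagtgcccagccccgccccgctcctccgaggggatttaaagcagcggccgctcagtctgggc
RGS17: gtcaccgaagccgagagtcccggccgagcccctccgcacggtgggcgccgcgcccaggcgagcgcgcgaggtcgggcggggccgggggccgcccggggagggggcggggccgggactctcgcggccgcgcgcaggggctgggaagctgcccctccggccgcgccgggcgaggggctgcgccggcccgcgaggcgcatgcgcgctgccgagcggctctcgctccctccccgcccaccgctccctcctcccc

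The RGS2 window held TGACG on the opposite strand (read as CGTCA) 181 bases before the start and CCAAT 89 bases before it. CCAAT stood 221 bases before the start of RGS16, and again on the opposite strand (ATTGG) 71 bases before it. None of the 6 motifs searched was found in the RGS17 window. The full cyclic AMP response element TGACGTCA, which contains the shorter motif, was in none of the 3 windows and in 1.65% of the 35116 windows of the same length in the table. Of all windows in the table, 21.2% held the shorter cyclic AMP motif and 32% held the NF-Y motif on either strand. The TATA box, searched as TATAAA, stood in 10.7% of all windows. The element bound by AP-1 proteins, searched as TGACTCA, was found in 4.2% of all windows in the table. The E-box of basic helix-loop-helix factors, searched as CACGTG, was found in 6.34% of them. None of these last 3 motifs occurred as exact strings in the windows printed here, and variants of them were not searched. The table held 26 windows for the 10 members, and neither motif was particular to RGS2 and RGS16. The shorter cyclic AMP motif also stood in 1 of 5 windows of RGS3, 2 of 4 of RGS4 and 1 of 5 of RGS12, and the NF-Y motif in 1 of 5 of RGS3, 2 of 4 of RGS4 and the single window of RGS9. The windows of RGS7, RGS10 and RGS19 held neither, like that of RGS17. The 3 windows were rich in G and C, at 72.8% in RGS2, 68.4% in RGS16 and 84% in RGS17.

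Depth was similar across the libraries, with 20486391 to 29402440 counts assigned to genes, so that a floor of detection set at 3 counts was worth 0.101 to 0.144 CPM, the count of a gene relative to the library's total. CPM values were scaled by the TMM library factors, which lay between 0.983 and 1.02. All 12 β cell markers checked were above the low-count filter, and 6 of 11 markers of other pancreatic, stromal and immune cells were near the floor. INS, the insulin gene, had 1918 ± 535 RPKM (SD, n = 3) in DMSO, and 37.5% of its exonic bases overlap other annotation on the same strand. Of the 12 β cell markers, 1 was called, against 0.708% of all genes tested, the transcription factor MAFA, with a log2 fold change of 1.24 (edgeR adjusted p = 0.000133). NEUROD1 and SLC30A8 were lower in every AZD7762 library than in any DMSO library, at -0.23 (edgeR adjusted p = 0.182) and -0.13 (edgeR adjusted p = 0.518) on the log2 scale, and PDX1 and NKX6-1 were higher in every one, at 0.09 (edgeR adjusted p = 0.632) and 0.15 (edgeR adjusted p = 0.423). Over all genes tested, 8.24% were lower and 6.81% were higher in every AZD7762 library in this way. Among the markers of other cells, the acinar genes PRSS1 and CELA3A had 0 counts in every library, while the ductal gene KRT19 had 534 to 737 counts and the acinar gene CPA1 457 to 692. COL1A1 had 230 to 330 counts, GCG 28 to 41 and COL3A1 21 to 26. CPA1 was also higher in every AZD7762 library than in any DMSO library, at 0.24 on the log2 scale (edgeR adjusted p = 0.308). The summed CPM of the 11 genes was 57.4 to 69.9 in DMSO and 64.2 to 71.6 in AZD7762. Mitochondrial genes took 1.57, 2.13 and 2.12% of the counts in the DMSO libraries and 2.26, 2.28 and 2.63% in the AZD7762 libraries, so that this share too was higher in every AZD7762 library. The part of these markers and of the mitochondrial share in the results was not tested. In bulk libraries fewer cells of a type and less RNA per cell cannot be told apart. The labels do not say whether the 3 libraries of a group came from separate cultures, so the errors given here measure only the spread between these libraries.

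RGS2 had 12.7, 11.1 and 12 CPM in the 3 DMSO libraries and 54.8, 66.0 and 59.2 CPM in the 3 AZD7762 libraries. Every AZD7762 library stood above every DMSO library, and the lowest of them was 4.32 times the highest DMSO value. RGS2, which is selective for Gq among the R4 proteins, lies on chr1:192778169-192781405 (GRCh37, plus strand), a locus of 3237 bp. Its mean was 11.9 ± 0.775 CPM (SD, n = 3) in DMSO and 60.0 ± 5.66 CPM (SD, n = 3) in AZD7762, and its fitted log2 fold change was 2.33 (SE 0.0884), or 5.02-fold. The underlying counts were 250 to 375 per DMSO library and 1264 to 1391 per AZD7762 library, far above the floor in both groups. By signed log2 fold change, RGS2 ranked 12 among the 17649 genes tested.

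RGS16 had 3.72, 4.0 and 3.73 CPM in DMSO and 6.55, 9.35 and 7.73 CPM in AZD7762. The groups did not overlap here either, but the lowest AZD7762 value was only 1.64 times the highest DMSO value. RGS16 acts on Gi and Gq α subunits and lies on the same chromosome, at chr1:182567758-182573524 (minus strand). Its mean went from 3.82 ± 0.160 to 7.88 ± 1.41 CPM (SD, n = 3 each), with a log2 fold change of 1.04 (SE 0.143), or 2.05-fold. It was measured from 78 to 197 counts per library, fewer than RGS2 in each of them.

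The other members of the R4 group overlapped between the treatments. RGS4, a regulator of Gi and Gq signalling that lies on chr1:163038565-163046592, had 32.1, 28.2 and 24.9 CPM in DMSO and 29.0, 31.8 and 29.2 CPM in AZD7762. All 3 AZD7762 values fell between the lowest and the highest DMSO value, and the log2 fold change was 0.07 (SE 0.0919). RGS3, a longer R4 protein found in several isoforms (chr9:116207011-116360023), had 37.7, 37.4 and 40.1 CPM in DMSO and 37.8, 36.9 and 38.5 CPM in AZD7762. These groups overlapped too, with a log2 fold change of -0.02 (SE 0.0646), so the R4 group held both the largest and some of the smallest differences among the 10 genes.

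**Figure D1:**
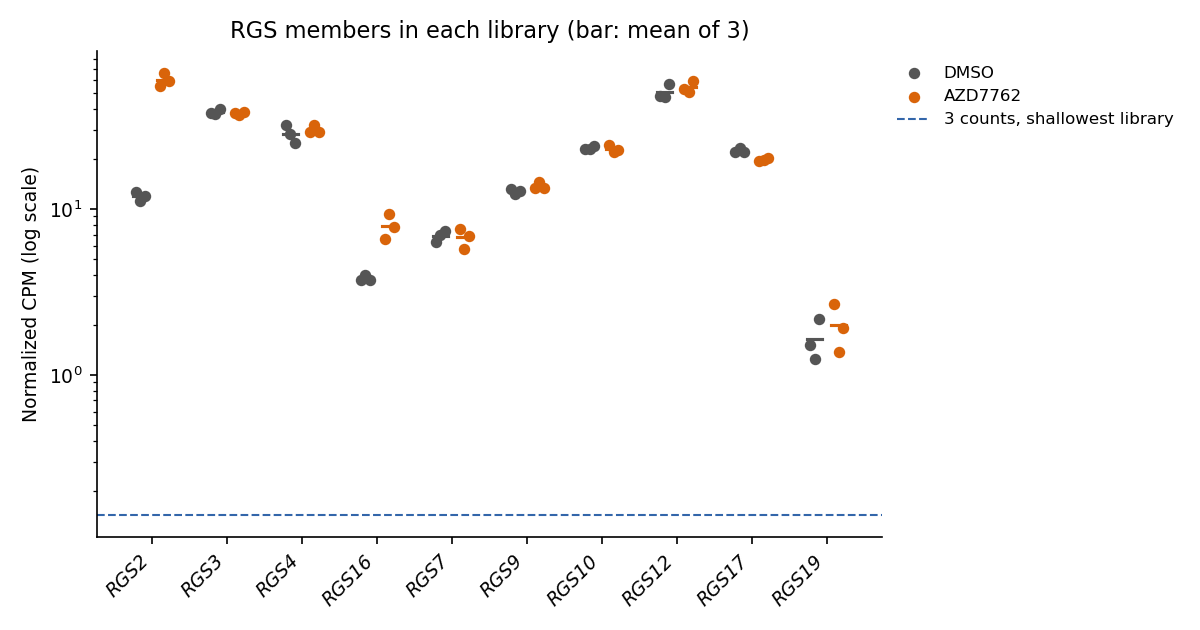
Normalized CPM (log axis) of the 10 RGS genes in each of the 3 DMSO libraries (grey points) and 3 AZD7762 libraries (orange points), with horizontal bars at the group means and a dashed line at the CPM worth 3 counts in the library where that is highest. RGS2 stood at 11.1 to 12.7 CPM in DMSO and 54.8 to 66.0 CPM in AZD7762, RGS16 also separated, and RGS19 was the lowest gene, at 1.25 to 2.66 CPM.

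RGS7 and RGS9, the R7 members, work as obligate partners of the atypical Gβ subunit GNB5. RGS7 had 6.29, 6.94 and 7.37 CPM in DMSO and 7.58, 5.74 and 6.88 CPM in AZD7762. The AZD7762 libraries held both the highest and the lowest of these values, and the log2 fold change was -0.02 (SE 0.127). RGS7 spans chr1:240930936-241520674, 589739 bp, and 2.62% of its exonic bases are shared with an antisense gene. Whether counting used the strand is not given in the sources used here, so reads of such partners cannot be told apart. RGS9 (chr17:63096930-63223821), known for ending the light response in photoreceptors, had 13.3, 12.3 and 12.7 CPM in DMSO and 13.3, 14.4 and 13.3 CPM in AZD7762. Its groups did not overlap, but by a margin smaller than the rounding used here, and the log2 fold change was 0.10 (SE 0.0866).

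RGS10 and RGS12 make up the R12 group. RGS10, a short protein made of little more than the RGS domain (chr10:121259329-121302231), had 22.8, 23.0 and 24.0 CPM in DMSO and 24.2, 22.1 and 22.6 CPM in AZD7762. Its groups overlapped, with a log2 fold change of -0.02 (SE 0.0741). RGS12, a large scaffold with further domains beside the RGS domain (chr4:3294748-3441640), had 47.9, 47.1 and 56.9 CPM in DMSO and 52.8, 50.4 and 58.6 CPM in AZD7762. Replicate 3 was the highest library in both groups, the groups overlapped, and the log2 fold change was 0.09 (SE 0.0845).

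The RZ members RGS17 and RGS19 carry a cysteine string that is palmitoylated and act on Gz and other Gi-class α subunits. RGS17 (chr6:153325594-153452417) had 21.9, 23.4 and 22.1 CPM in DMSO and 19.4, 19.7 and 20.2 CPM in AZD7762. Every AZD7762 library was below every DMSO library, from 22.5 ± 0.807 to 19.8 ± 0.414 CPM (SD, n = 3 each) and a log2 fold change of -0.18 (SE 0.0740). A pseudogene of it, RGS17P1, had 2 to 6 counts per library, against 415 to 648 for RGS17. RGS19 (chr20:62704534-62711341) had 1.52, 1.25 and 2.15 CPM in DMSO and 2.66, 1.38 and 1.92 CPM in AZD7762. The groups overlapped, and with 29 to 67 counts per library its log2 fold change of 0.32 had the widest standard error of the 10, 0.262.

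A Benjamini-Hochberg adjusted p under 0.05 (quasi-likelihood test of edgeR) was reached by 2 of the 10 genes, RGS2 and RGS16, both higher, where 0.708% of all genes tested reached it, 0.357% higher and 0.351% lower. The groups did not overlap for 4 of the 10, with 3 higher and 1 lower in AZD7762, where 15.0% of all genes tested did not, 6.81% higher and 8.24% lower. Neither count is a test of the 10 genes, since they were picked with the response to the drug known, and nothing is read from them. The median log2 fold change of the 10 was 0.08, and that of the 8 without RGS2 and RGS16 was 0.03, with a range of -0.18 to 0.32, beside 0.01 over all genes tested.

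**Figure D2:**
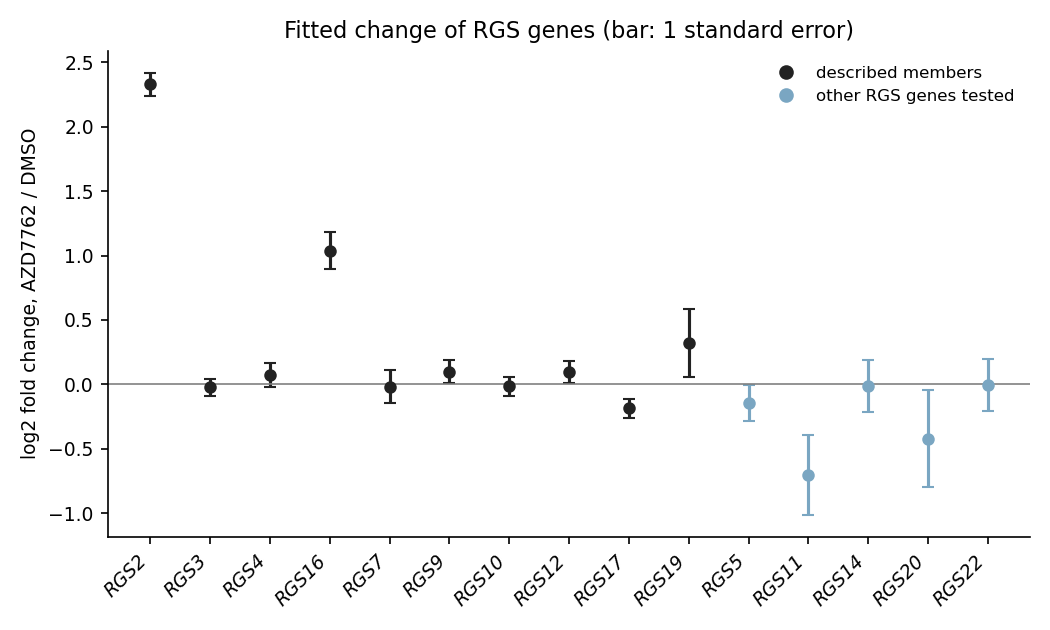
Fitted log2 fold change (AZD7762 over DMSO) with bars of 1 standard error for the 10 RGS genes described (black) and the other 5 RGS genes tested (blue). RGS2 stood at 2.33 and RGS16 at 1.04, and the other points lay between -0.70 and 0.32.

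None of the 10 lay near the floor of detection, here a median under 10 counts over the 6 libraries or removal by the low-count filter, nor did any have a median under 20 counts. RGS19 came closest, and its lowest library of 29 counts was 9.67 times the floor of 3 counts. RGS16 was next, with a lowest library of 78 counts, 26.0 times the floor, and RGS2 had at least 250 counts, 83.3 times the floor. The genes near the floor were among the other 11 RGS genes with a symbol in the files, of which 6 had too few counts to be tested. RGS11 and RGS20 were tested, but each had a median of 10 counts and so falls under the wider cut of 20. RGS13 and RGS18 had 0 counts in every library, which allows up to 0.101 to 0.144 CPM in a library, RGS1 had 0 to 1 and RGS8 0 to 2, and RGS6 had 2 to 5 and RGS21 2 to 10. RGS1, RGS13 and RGS21 are neighbours of RGS2 in a cluster of R4 genes on chromosome 1, and RGS8 lies beside RGS16. The floors given here cover counting error only.

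**Figure D3:**
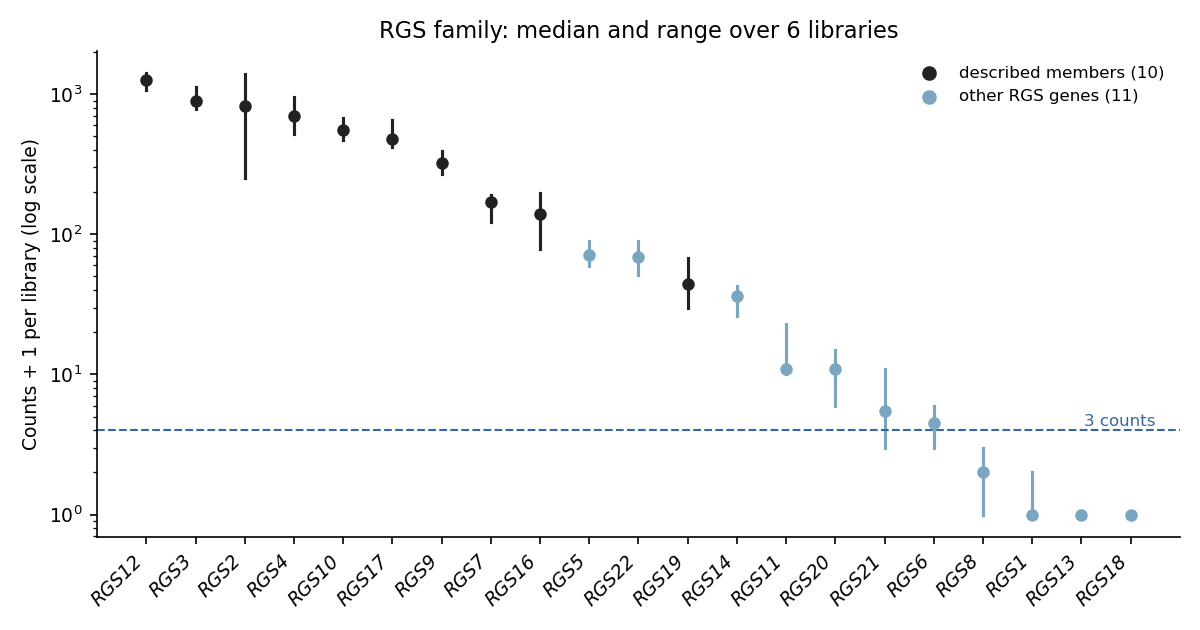
Counts plus 1 per library (log axis) for 21 RGS genes, with a point at the median and a line from the lowest to the highest of the 6 libraries, in black for the 10 genes described and blue for the other 11. The black points all lay above the dashed line at 3 counts, RGS19 lowest with 29 to 67 counts, while RGS13 and RGS18 sat at 0 counts.

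Of the other 11 RGS genes, 5 could be tested and 0 passed, by edgeR's quasi-likelihood test, by its exact test or by DESeq2. An unadjusted p under 0.05 was reached by 1 in the quasi-likelihood test and by 0 in the exact test and in DESeq2. RGS5, an R4 protein best known from vascular pericytes, had 3.13 ± 0.142 CPM in DMSO and 2.82 ± 0.0941 CPM in AZD7762 (SD, n = 3 each), with a log2 fold change of -0.14 (SE 0.139, edgeR adjusted p = 0.795). RGS22 had 2.77 ± 0.402 and 2.80 ± 0.714 CPM (SD, n = 3 each), a difference well within the spread of its libraries (edgeR adjusted p = 0.998). The gene at an unadjusted p under 0.05 was RGS11, a further partner of GNB5, named here after its value was seen. It had only 9 to 22 counts per library, a log2 fold change of -0.70 (SE 0.307, edgeR adjusted p = 0.483), and shares 21.7% of its exonic bases with an antisense gene. The median log2 fold change of the 5 was -0.14, with 2 of them, RGS5 and RGS11, lower in every AZD7762 library than in any DMSO library, as were 8.24% of all genes tested.

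To compare levels between genes, CPM were divided by exon length (RPKM). In DMSO, RGS10 was the most abundant member at 18.3 ± 0.484 RPKM (SD, n = 3), followed by RGS4 at 6.01 ± 0.760 and RGS2 at 5.71 ± 0.371. The values of RGS4 and RGS2 overlapped between libraries, as did those of RGS3 and RGS17, and the remaining 7 of the 9 neighbouring pairs in the order did not overlap. RGS12 (3.68 RPKM), RGS3 (2.92), RGS17 (2.83), RGS9 (1.81), RGS16 (1.59), RGS19 (0.809) and RGS7 (0.317) followed. By CPM, which favours long transcripts, RGS2 ranked 7 in place of 3 and RGS10 ranked 4 in place of 1. RGS12 was the highest by CPM, at 50.6.

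In AZD7762, RGS2 ranked 1 by RPKM and by CPM, at 28.7 ± 2.71 RPKM (SD, n = 3), above RGS10 at 18.0 ± 0.862 RPKM. RGS16 moved from rank 8 to rank 5, at 3.27 ± 0.584 RPKM, and overlapped RGS12 above it and RGS3 below it. The order of the other members among themselves was the same in both groups. RGS7 was the lowest by RPKM in both, but its annotated exons add up to 21651 bp, the longest of the 10. The RPKM of any gene, and sums or shares built on it, depend on which annotated exons are used in these cells.

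Summed over the 21 RGS genes, RPKM was 46.0, 44.8 and 46.3 in the DMSO libraries and 68.3, 73.2 and 69.9 in the AZD7762 libraries. RGS2 made up 13.2, 11.9 and 12.4% of that sum in DMSO and 38.4, 43.2 and 40.6% in AZD7762. RGS10 made up 38.9 to 40.7% in DMSO and 23.7 to 27.8% in AZD7762, at 18.3 and 18.0 RPKM. Without RGS2 the sum was 40.0 ± 0.535 RPKM in DMSO and 41.7 ± 0.279 RPKM in AZD7762 (SD, n = 3 each).

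**Figure D4:**
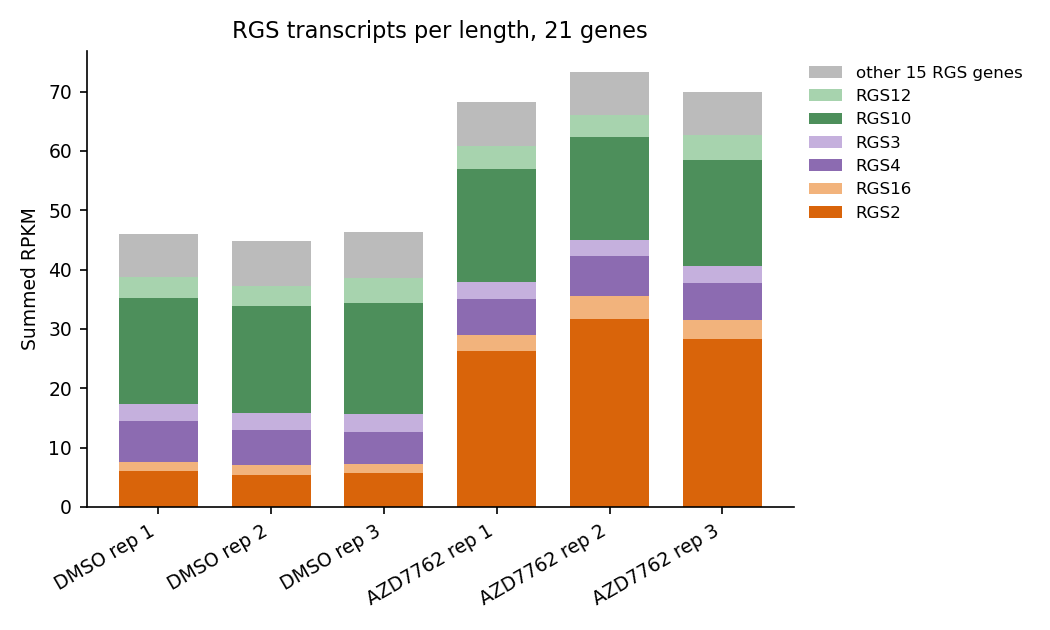
Summed RPKM of 21 RGS genes in each library, stacked from the bottom as RGS2, RGS16, RGS4, RGS3, RGS10, RGS12 and the other 15. RGS2 (dark orange) took 11.9 to 13.2% of each DMSO bar and 38.4 to 43.2% of each AZD7762 bar, and the rest of the stack was of similar height in all 6.

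The genes whose log2 CPM most resembled that of RGS2 over the 6 libraries were BTG2 (Pearson r = 0.999), NR4A1 (0.997), SYT4 (0.997), KLF4 (0.997) and DUSP4 (0.996), out of 13903 genes compared. BTG2 encodes an antiproliferative protein, NR4A1 a nuclear receptor, SYT4 a synaptotagmin, KLF4 a zinc-finger transcription factor and DUSP4 a phosphatase of MAP kinases. In CPM, BTG2 went from 97.6 in DMSO to 553 in AZD7762 and NR4A1 from 6.34 to 71.8. Among the members, r with RGS2 was highest for RGS16, at 0.971, and lowest for RGS17, at -0.944. The 6 points are the same libraries in 2 treatment groups, so r mainly follows the difference between the groups and is given with no test.

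The 10 genes differed in size and place. RGS2, RGS16, RGS4 and RGS19 span under 10000 bp, 40% of the 10, where 18.2% of the protein-coding genes tested do, and RGS2 and RGS16 were among these short ones. Short loci were also common among the called protein-coding genes of either direction, at 60.7% of those higher and 51.6% of those lower. Within 500000 bp of RGS2 lie 8 other protein-coding genes, of which 5 were tested and 0 were called by edgeR's quasi-likelihood test, with log2 fold changes of -0.15 to 0.18. The 9 such genes around RGS16 included 5 tested and 0 called, at -0.09 to 0.07. These comparisons of span and position were added after the data were seen.

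The wider G protein machinery was examined in 62 genes, of which 54 could be tested. The quasi-likelihood test of edgeR called 0 of the 54, as did its exact test and DESeq2. In the quasi-likelihood test, 4 had an unadjusted p under 0.05, where 9.68% of all genes tested did. Log2 fold changes ran from -0.51 to 0.67 with a median of 0.04, and 57.4% were above 0 beside 52.4% of all genes tested. The groups did not overlap for 6 genes that were higher and 4 that were lower, where 6.81% and 8.24% of all genes tested did not.

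G protein subunits came first, of which RGS proteins act on α subunits of the Gi, Go, Gz or Gq classes. The 12 Gα genes tested also hold other classes, such as Gs. Of these 12, 9 had a log2 fold change above 0, with a median of 0.05. GNAS, the Gs α subunit through which GLP-1 receptors raise cyclic AMP, was the most abundant at 4541, 4377 and 3958 CPM in DMSO and 4597, 4724 and 4415 CPM in AZD7762. Those groups overlapped, with a log2 fold change of 0.09 (SE 0.0755, edgeR adjusted p = 0.747). GNAI2, a Gi α subunit and RGS substrate, had 556, 519 and 556 CPM in DMSO and 627, 580 and 574 CPM in AZD7762. Its groups did not overlap, but the log2 fold change of 0.13 did not pass (SE 0.0625, edgeR adjusted p = 0.547). Among 11 Gβ and Gγ genes, 9 were above 0 with a median of 0.08, and the most abundant, GNB2 and GNB1, had log2 fold changes of 0.14 (edgeR adjusted p = 0.639) and 0.08 (edgeR adjusted p = 0.719).

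Partners and anchors of the R7 proteins, 4 of them tested, had a median of -0.11. GNB5 had 54.3, 52.6 and 52.2 CPM in DMSO and 48.8, 53.5 and 48.7 CPM in AZD7762, overlapping groups with a log2 fold change of -0.08 (edgeR adjusted p = 0.753). GPR179, an orphan receptor that anchors R7 proteins, had a log2 fold change of 0.03 (edgeR adjusted p = 0.928). Of the 9 other proteins with an RGS-like domain tested, 1 was above 0, the median was -0.03, and 4 were lower in every AZD7762 library than in any DMSO library, as were 8.24% of all genes tested. The most abundant were ARHGEF12, an effector of Gα12 and Gα13 (log2 fold change -0.02, edgeR adjusted p = 0.960), and AKAP10, an anchor of protein kinase A (-0.12, edgeR adjusted p = 0.582).

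Receptor kinases and arrestins, which switch off the receptors themselves, had a median of 0.07 over 7 genes. The most abundant were GRK2 at 0.07 (edgeR adjusted p = 0.805) and ARRB2 at 0.13 (edgeR adjusted p = 0.519). The 8 other regulators of G proteins had a median of 0.03, with NUCB1 at 0.16 (edgeR adjusted p = 0.471) and NUCB2 at 0.08 (edgeR adjusted p = 0.715) the most abundant. Among the phospholipase C β genes, effectors of Gq, 3 were tested with a median of -0.03, and PLCB4 at -0.08 and PLCB1 at -0.03 were the most abundant (edgeR adjusted p = 0.765 and 0.914). The 4 genes of the 54 at an unadjusted p under 0.05, named after their values were seen, were SNX13 (-0.23, edgeR adjusted p = 0.254), AXIN2 (-0.29, edgeR adjusted p = 0.416), NUCB1 and GNG13 (0.67 from 9 to 15 counts per library, edgeR adjusted p = 0.513).

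**Figure D5:**
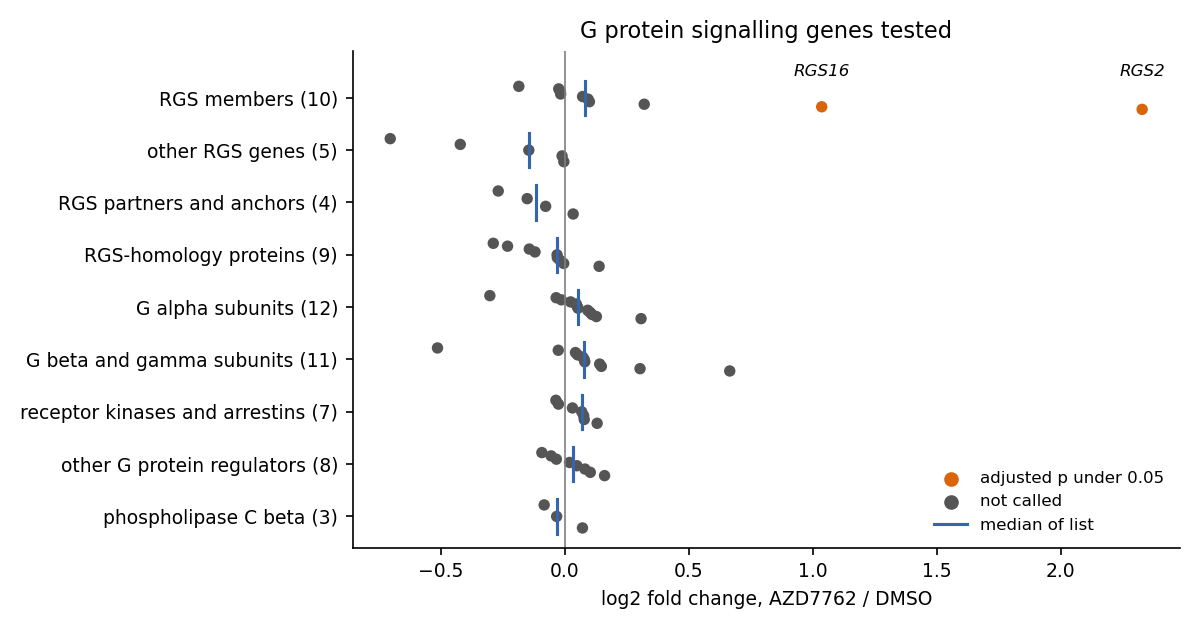
Log2 fold change (AZD7762 over DMSO) of each tested gene in 9 lists of G protein signalling genes, with the number tested after each name, a vertical blue bar at the list's median, and orange for an adjusted p under 0.05. RGS2 and RGS16 were the coloured points, and the 54 signalling genes beyond the RGS family lay between -0.51 and 0.67.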

How the data were processed

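RNA-seq counts were available for 6 libraries, grouped by the treatment in the labels. The authors made polyA libraries, sequenced them in pairs of 51 bp, checked the reads with FastQC (0.10.1), trimmed them with cutadapt (1.18), aligned them to GRCh37 (aligner not given in the sources used here) and counted reads per gene with HTSeq-count. The deposited values are raw counts, unscaled and unfiltered.

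Counts were fitted in R 4.3.3 with edgeR 4.0.16: TMM factors, filterByExpr, and a two-sided quasi-likelihood test of treatment with no covariate, Benjamini-Hochberg adjusted over 17649 genes. Standard errors were derived from the F statistic and the fitted change. Exon lengths came from a GRCh37 annotation of another release, which matched 58646 identifiers. DESeq2 1.42.0, edgeR's exact test, other scalings, filters, a replicate block and leaving out each library were alternatives. Scripts were tested on simulated data.

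The members, gene lists and tests were chosen with earlier results of these data known. Named were all members, the called and the 2 most abundant genes (by RPKM) of the other RGS genes and of each G protein signalling list, and the 5 genes most like RGS2.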

Additional observations from a re-analysis of the deposited data

How the results depend on the processing

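RGS2 and RGS16 remained the 2 members called under each of the 13 alternatives, the replicate block included. The log2 fold change of RGS2 ran from 2.25 to 2.38 and that of RGS16 from 0.89 to 1.15. As the members were picked with this response known, these repeats describe the fits and add no support. The count of other RGS genes and of G protein signalling genes called stayed at 0 under all 13. The count of signalling genes at an unadjusted p under 0.05, 4 of 54 in the main fit, did move. It ran from 2 of 54, without DMSO replicate 2 or without AZD7762 replicate 1, to 11 of 54 with the replicate block. The share over all genes at that threshold was not computed for these fits. Signs changed for members close to 0: without DMSO replicate 3 RGS10, RGS7, RGS3 and RGS4 turned, and without AZD7762 replicate 2 RGS10 and RGS7. RGS19 ranged from 0.03 to 0.54, the widest range of the 10, and its low counts limit what can be said of it. Over all genes, 125 of 17649 were called. With the same 17649 genes tested, the count was 378 with the replicate block, 254 by edgeR's exact test and 175 by DESeq2. Without a filter it was 330 of 34742. When 1 library was left out, 77 to 168 were called (77 without AZD7762 replicate 1), with 17750 to 18181 genes tested. The deviations of same-numbered libraries correlated at 0.0533, 0.124 and 0.210, and those of differently numbered libraries at -0.253 to 0.175. These ranges overlap, so the values do not settle whether replicate numbers pair the samples.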
